A study of Mus musculus with 2 samples.

Results

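The regions described here are stretches of the mouse genome that carried a peak in both of 2 CUT&Tag libraries made with a Rac1 antibody. The deposited lists annotate them as distal intergenic in at least 1 of the libraries. In CUT&Tag an antibody bound in isolated nuclei tethers the Tn5 transposase, which inserts sequencing adapters around the bound sites. A library came from retina without treatment and another from retina after 1 week of chronic ocular hypertension (COH), which models glaucoma, the disease in which ganglion cells of the retina are lost under high eye pressure. Both libraries came from wild-type C57BL/6 mice 7 weeks old, and the labels do not say how many animals or eyes each holds. Members were the peaks that the deposited lists annotate as distal intergenic and that share at least 1 bp with any peak of the other library. They were selected on the peak calls of both libraries, that is on presence in each list and on position, and not on height. They numbered 260 of the 569 distal intergenic and 3078 total control peaks, and 263 of the 457 distal intergenic and 1711 total COH peaks. Overlapping peaks were joined into 262 sites. Because each condition has a single library, nothing is known of the spread between retinas, and values are described without tests between the conditions.

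Rac1 is a small GTPase that cycles between a GDP-bound and a GTP-bound form and is best known for driving actin remodelling at the cell membrane. It is also found in the nucleus, and it has no known DNA-binding domain of its own. Intergenic DNA holds enhancers, which act on genes at a distance, and also pseudogenes, gene-family arrays, satellite repeats near centromeres and the repeats at chromosome ends. An assigned gene is therefore a neighbour in the annotation and not a shown target. A site called near a gene is one that the lists assign to it, at up to 455754 bp from its transcription start in control. The 2 values that describe each peak are the pileup, the height of stacked sequenced fragments at the peak, whose scaling is not stated, and the fold enrichment over the background that the peak caller estimated. The submitters' notes name the build mm9, but peaks on chromosome Y reach position 90824222 in the control list, past the end of that chromosome in mm9. Of 176 genes of the members found on the same chromosome of GRCm38.p6, 11 had a start or end within 100 bp of the listed one. The positions below are those of the lists, their build is not settled, and no sequence of the sites is shown.

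Sharing a site was the rule itself, and its counts are given for scale. A COH partner was found for 45.7% (exact 95% binomial interval 41.5 to 49.9) of the control distal intergenic peaks, against 34.3% of all control peaks. A control partner was found for 57.5% (52.9 to 62.1) of the COH distal intergenic peaks, against 61.8% of all COH peaks. The intervals cover counting error only, since each condition has a single library, and how PCR copies were handled is not known. The partner was itself distal intergenic at 259 of the 262 sites. The other 3, near Akap6, Cd83 and Was, were called exonic in control and distal intergenic in COH. At 260 sites a single control peak met a single COH peak, and at all 262 the lists assigned the same gene in both libraries. None of the members was mitochondrial: each list held 4 mitochondrial peaks, annotated as promoter or exon of mt-Nd1, mt-Co1, mt-Cytb or mt-Nd5. Their pileups of 216 to 652 came with folds of 1.54 to 4.08.

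Most members had moderate pileups, with a long tail of very high ones, and a limit of 100 was set to describe the tail apart. A pileup above 100 was reached at 22 sites, of which 16 exceeded it in both libraries, while 240 sites stayed at or below 100 in both. Above 100, the 22 control peaks had a median pileup of 479 and the 17 COH peaks a median of 639. These medians cover different sets of sites, and at 19 of the 22 sites the pileup was higher in control. At or below 100, the 238 control peaks ran from 9 to 94 with a median of 26, and the 246 COH peaks ran from 10 to 98 with a median of 24. The limit is no gap in the control values, which run on from 94 to 104, both near the ribosomal protein pseudogene Rpl31-ps7, and up to 146 before the next at 230. In COH the next value above 98 was 221. Shared distal sites held 22 of the 53 control peaks above 100 outside the mitochondrial genome and 17 of the 44 COH peaks. The control list had 1 further distal intergenic peak above 100 without a partner, and the COH list had 0.

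**Figure D1:**
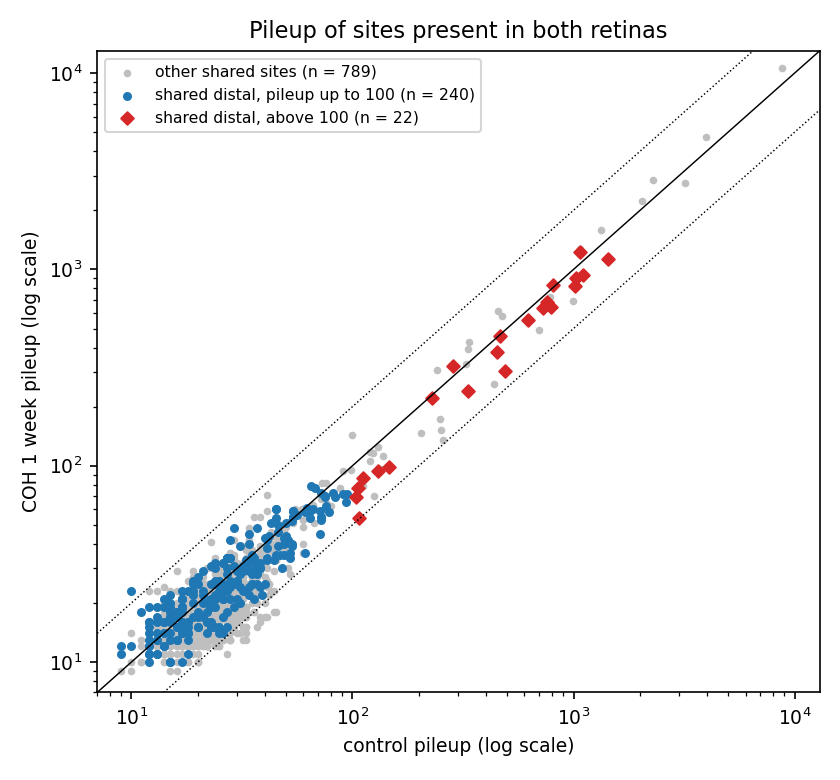
Pileup in control (x axis) and COH 1 week (y axis) for sites present in both lists, on log scales; the solid line marks equal values and the dotted lines a 2-fold ratio. Diamonds are the 22 shared distal sites above 100 in either library, 6 of which lie at or below 100 in COH beside the highest of the 240 others (blue points), and all but 1 shared distal site lie between the dotted lines.

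The highest sites were often the outermost peaks of a chromosome. Of the 22 very high sites, 9 were the first or the last peak on their chromosome in both lists, 7 of them the last. Among the 240 other sites the same was true of 5, and among the 789 overlapping sites that are not distal intergenic of 11. The highest control pileup of the shared distal sites was 1427, against 1131 in COH. It belonged to the last peak of chromosome 7 (144894670 to 144895187 in both libraries). It lies 26098 bp from the transcription start site (TSS) of Mrgprd, which encodes a receptor of itch- and pain-sensing neurons. The last peak of chromosome 14 lay 124433 bp upstream of Fgf14, which encodes a modulator of voltage-gated sodium channels, with pileups of 1100 in control and 933 in COH. The last peak of chromosome 18, near the predicted gene Gm20039, had 1013 and 819. The last peak of chromosome 12, near Gm27236, had 790 and 645, and the largest fold of all shared distal sites, 31.0 in control and 30.0 in COH. The last peaks of chromosomes 16, near A630089N07Rik, and 2, near Gm14496, had pileups of 620 and 466 in control and 552 and 456 in COH. At these 6 outermost sites the pileup was lower in COH than in control, and the fold enrichment was above 20 in both libraries. Folds above 20 in both libraries were also found at 3 sites that were not outermost, near Gm5626, Gm11668 and Gm8797.

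A high pileup did not always come with a high fold. The last peak of chromosome 9, near Gm21836, had pileups of 1030 (control) and 903 (COH) with folds of 2.68 and 2.76. A second site of Gm21836 close to it had 727 and 639 with folds of 1.89 and 1.95. The first peak of chromosome 14, near the pseudogene Gm9637, had the highest COH pileup of the shared distal sites. It was 1228 against 1068 in control, with folds of 7.90 and 8.40. The background behind a peak was back-calculated as (pileup + 1) / fold - 1, which assumes that the caller adds 1 to both terms of its ratio. It was 384 in control and 326 to 327 in COH at both Gm21836 sites, and 126 to 127 in control and 155 in COH at both Gm9637 sites. Among the 240 moderate sites its median was 2.0 in both libraries. In all, 8 very high sites had a fold below 10 in both libraries and 9 had a fold above 20 in both. The first peak of chromosome 10, near the pseudogene Gm30674, was in the low group, with pileups of 230 and 221 and folds of 2.75 and 2.47. The 3 very high sites with a higher pileup in COH were the 2 of Gm9637 and that of Gm3318, which begins 1930 bp past the end of the Gm30674 peak on chromosome 10.

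**Figure D2:**
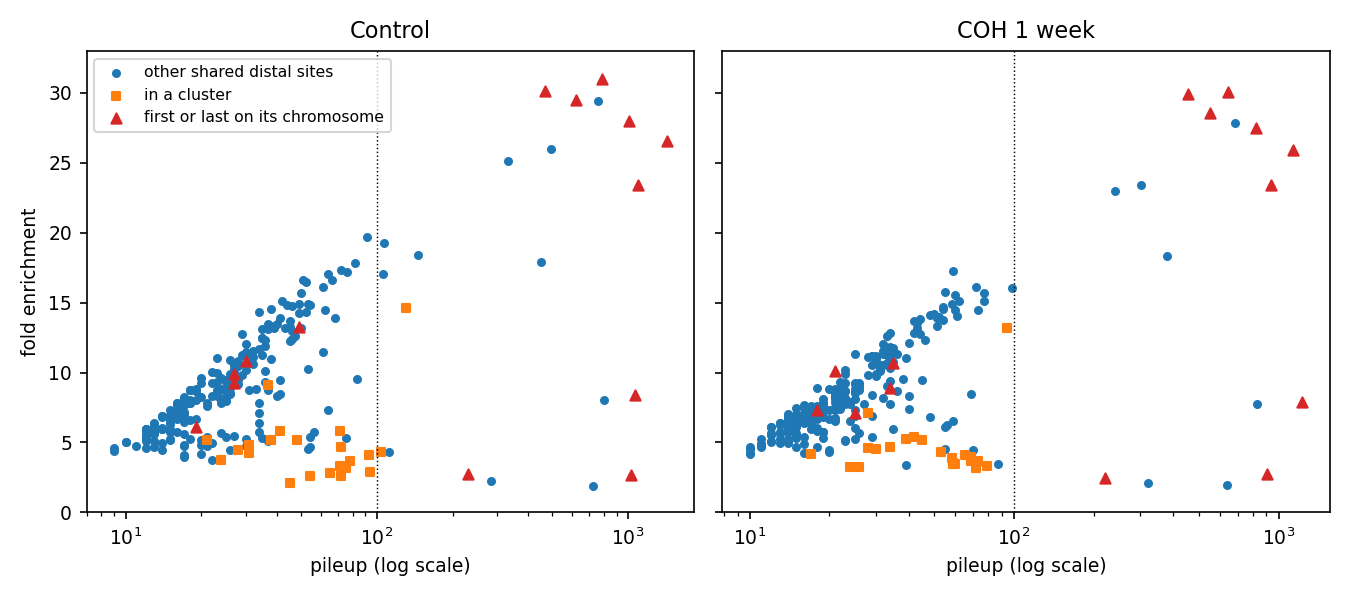
Fold enrichment (y axis) against pileup (x axis, log scale) of the 262 shared distal sites in control (left) and COH 1 week (right); the dotted line marks a pileup of 100. Triangles are sites that are the first or last peak on their chromosome in both lists, and squares are sites in windows of 100 kb that hold 5 or more peaks; most clustered sites lie below most other moderate sites of like pileup.

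The boundaries of the shared distal peaks were close between the libraries. At least 1 edge was at the same base in both lists at 67 of 262 sites (25.6%, 20.4 to 31.3). The same was true of 36 of 468 sites called promoter in both lists (7.69%, 5.45 to 10.5). Both edges were the same at 7 shared distal sites and at 2 promoter sites. At the very high sites 15 of 22 (68.2%, 45.1 to 86.1) shared an edge, and the last peaks of chromosomes 7 and 12 began and ended at the same base. The summits, the highest points of a peak, lay a median of 4.0 bp apart at the very high sites and 43.0 bp apart at the other shared distal sites. At promoter sites the median was 103.0 bp. Promoter peaks were longer, at a control median of 596 bp against 442 bp for the shared distal peaks. The shares were also set side by side within ranges of the control pileup. The COH pileup was held to at most 100 but not matched, and neither was length. In the lowest range, promoter peaks had a control median length of 494 bp against 361.5 bp. Their median log2 ratio of COH over control pileup was -0.16 against 0.09. With a control pileup of 9 to 19, 19 of 80 shared distal sites (23.8%, 14.9 to 34.6) and 3 of 133 promoter sites (2.26%, 0.468 to 6.45) had an edge in common. From 20 to 39 it was 21 of 104 (20.2%, 13.0 to 29.2) and 24 of 295 (8.14%, 5.28 to 11.9). From 40 to 100 the intervals overlapped, with 12 of 56 (21.4%, 11.6 to 34.4) and 4 of 28 (14.3%, 4.03 to 32.7). Neighbouring sites are not independent draws, and these shares were not tested against each other.

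**Figure D3:**
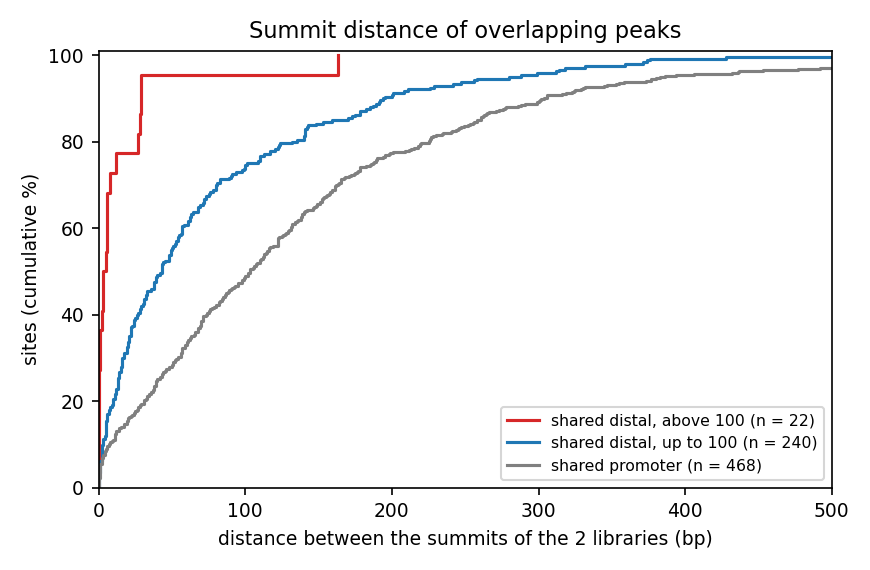
Cumulative share of sites (y axis) by the distance in bp between the control and the COH summit (x axis, to 500 bp), for very high shared distal sites, other shared distal sites and shared promoter sites. The medians are 4.0, 43.0 and 103.0 bp.

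The 240 moderate sites were led mostly by loci near pseudogenes and predicted genes. The highest fold in control was 19.7, at a site on chromosome 6 (102018120 to 102018718) near the pseudogene Gm7924, where the pileup was 91 in control and 72 in COH. The highest fold in COH was 17.3, at a site 157852 bp upstream of Trps1, which encodes a zinc finger repressor of GATA-driven transcription. The pileup there was 54 in control and 59 in COH. The member farthest from a TSS was also among the strongest. It lies 455754 bp from the start of Ndufa4, a subunit of mitochondrial cytochrome c oxidase, with pileups of 82 and 73 and folds of 17.8 and 14.4. Of the 10 highest folds in control and the 10 in COH, 6 sites were common to both: those near Gm7924, Ndufa4, Gm37835, Gm15048, Gm44475 and Gm12460. Near Vmn1r-ps53, a pseudogene of a pheromone receptor family, the fold was 16.5 in control and 11.3 in COH. Near the odorant receptor gene Olfr1350 it was 13.7 and 14.6. The sites differed little in order between the libraries, with a Spearman correlation of pileup of 0.88 over the 240 moderate sites. That correlation is across sites of the same 2 libraries, whose values are bounded below by the caller's threshold.

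Distance to gene starts did not follow strength in a single direction. The moderate control members above the median fold had a median distance to the TSS of 54809 bp, against 33249 bp for those at or below it. In COH the medians were 60482 and 32653 bp. Of the former 52.1% (42.8 to 61.3) and of the latter 38.7% (29.9 to 48.0) lay more than 50 kb away in control, and these intervals overlap. In control, 19 of the 119 members at or below the median fold lay in windows of 100 kb with 5 or more peaks. Above it, 1 of 119 did. The weight of such neighbouring peaks in these medians was not tested. The very high members, which had the highest median folds, 18.2 and 23.0, lay nearest, with medians of 19194 bp (control) and 13181 bp (COH). That group was set by pileup and mixes folds: 9 of its sites had a fold above 20 in both libraries and 8 a fold below 10. Its median distance is therefore not that of the highest folds alone. Over all members the medians were 38700 and 38835 bp, against 38580 and 37734 bp for distal intergenic peaks found in a single retina. Of the control members 56.9% (50.7 to 63.0) lay upstream of the assigned gene and 22.3% (17.4 to 27.9) more than 100 kb from its TSS. The shortest distance was 257 bp, near Gm48848, with pileups of 22 and 16, although both lists annotate this site as distal intergenic. Shared distal peaks were stronger than those in a single retina, a difference tied to the rule because weak peaks are more easily missed in the other list. Their median fold was 8.08 in control and 7.41 in COH, against 5.05 and 5.13 for the unshared and 5.73 and 5.69 for promoter peaks in both retinas.

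**Figure D4:**
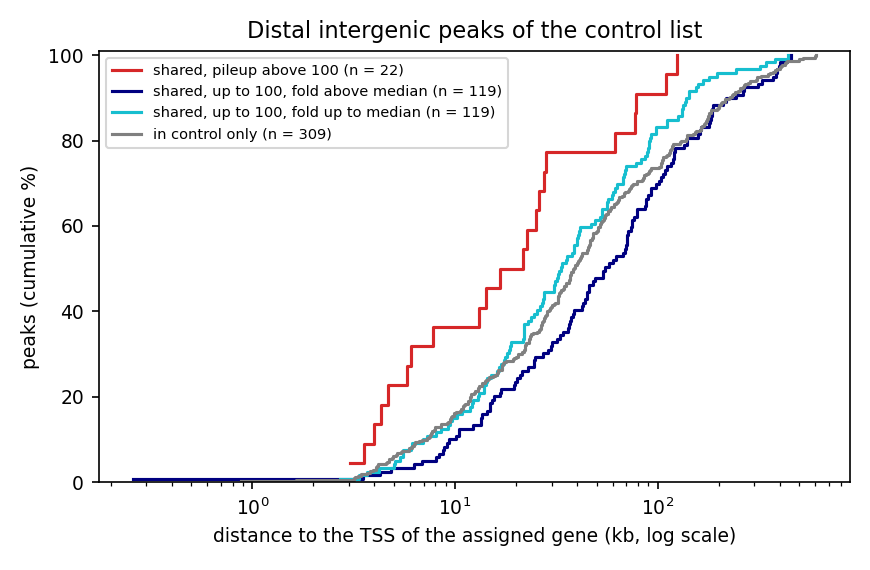
Cumulative share of distal intergenic peaks of the control list (y axis) by distance to the TSS of the assigned gene (x axis, kb, log scale), for very high shared peaks, moderate shared peaks above and up to the median fold, and peaks in control only. The curve of moderate peaks above the median fold lies to the right (median 54809 bp) of the curve of those up to it (33249 bp).

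The COH pileup was somewhat lower than the control pileup at most shared distal sites. It was lower at 158 sites, higher at 93 and equal at 11, and the median log2 ratio of COH over control was -0.12 (a ratio of 0.918). Over all 1051 overlapping sites outside the mitochondrial genome the median was -0.22, so relative to that shift the shared distal sites stood 0.10 higher. At promoter sites the median was -0.25. The order was the other way round for fold enrichment, whose median log2 ratio was -0.07 at shared distal sites and -0.01 at the other overlapping sites. The background computed per peak had a median log2 ratio of 0.0012 at shared distal sites and -0.25 at the others. A higher or lower pileup in COH therefore depends on the scale on which libraries of unknown depth are compared, and that scale was not tested.

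**Figure D5:**
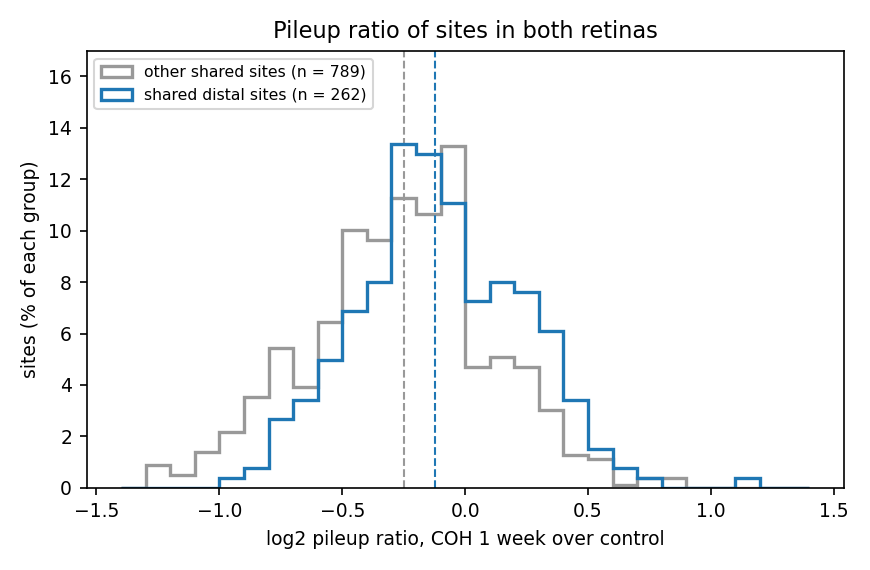
Distribution of the log2 pileup ratio, COH 1 week over control, as a percentage of sites in bins of 0.1, for the 262 shared distal sites (blue) and the 789 other overlapping sites (grey). Dashed lines mark the medians, -0.12 and -0.25.

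A ratio of at least 2-fold was reached at 1 of the 262 sites, and the background was 2.19% of all overlapping sites, 0.0951% higher and 2.09% lower in COH. That site lies on chromosome 1 (102705488 to 102705905 in control), 318841 bp upstream of the pseudogene Gm20281. Its pileup was 10 in control and 23 in COH, and its fold 5.05 and 10.2. No shared distal site was at least 2-fold lower in COH; taking 3 counts as the limit that a count of 0 allows, 0 of 262 leaves a share of up to 1.15%. The next higher site in COH lay 383794 bp upstream of the pseudogene Gm11888, with pileups of 29 and 48. After it came the site near Tmem229a, with 11 and 18. Near Gm9341 the pileup was 12 in control and 19 in COH, and near Gm13751 it was 28 and 42. The lowest moderate ratio belonged to the site 6082 bp upstream of Was, which encodes a blood-cell activator of Arp2/3 actin branching that is switched on by the Rac1 relative Cdc42. The peak at this site was called exonic in control and distal intergenic in COH. Its pileup was 26 in control and 14 in COH, a log2 ratio of -0.85. Near Gm4971 the pileups were 27 and 15, near Gm49316 39 and 22, near Gm9541 25 and 14, and near Mup-ps5, a pseudogene of the major urinary protein family, 36 and 21. Among the very high sites the lowest ratio was at one of a pair near Rps6ka4, a stress-activated histone kinase gene, with 107 and 54. Without replicates, none of these ratios can be set against the spread between retinas.

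Clustered shared distal sites had a lower median fold than the rest and a higher median pileup, most of all on chromosome 6. Pooled over clusters, their median pileup was 59.5 in control and 55.5 in COH, against 26 and 23 for the others, and their median fold 4.28 and 4.03, against 8.39 and 7.73. Stretches of 100 kb in which a list had 5 or more peaks held 22 of the 260 control members (8.46%, 5.38 to 12.5), against 1.92% of all control peaks. They formed 3 groups. On chromosome 6, 12 sites over 123 kb were assigned to Rpl31-ps7 or to Ezh2, which encodes the histone methyltransferase of Polycomb repression. Median pileups there were 73.5 in control and 62.5 in COH, against 28 and 28 on chromosome 8 and 38 and 30 on X. Control pileups on chromosome 6 ranged from 45 to 130 and COH pileups from 45 to 94, and the control value was the higher at 9 of the 12. Median folds were 3.48 in control and 3.76 in COH. The 5 sites of Ezh2 lay 60366 to 90609 bp upstream of its TSS. On chromosome X, 5 sites over 80.6 kb lay upstream of Asmt, which encodes the last enzyme of melatonin synthesis, where pileups ran from 31 to 65 (control) and from 24 to 79 (COH). On chromosome 8, 5 sites near Gm20778, Gm21769 and Gm21811 had pileups of 21 to 41 and 17 to 42. The median computed background of the 22 clustered sites was 13.0 in control and 9.72 in COH, against 2.0 in both libraries for the other 240. Samd11, which encodes a photoreceptor nuclear protein, had 3 members on chromosome 4 outside these stretches, with pileups of 56, 34 and 30 in control and 56, 45 and 25 in COH.

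The neighbours of the shared distal sites were mostly predicted genes and pseudogenes. The lists assigned 233 genes, of which 176 matched a RefSeq name. Of the 262 sites, 105 were assigned to a pseudogene, 94 to a protein-coding gene, 1 to another kind and 62 to a name without a match. Names made of Gm and a number were assigned to 55.4% of the control members, and to 56.3% of distal intergenic peaks in control only and 16.7% of all control peaks. Of the control members 40.4% (34.4 to 46.6) were nearest to a pseudogene, against 33.7% (28.4 to 39.2) of distal intergenic peaks in control only and 1.18% (0.436 to 2.56) of promoter peaks in both retinas. The intervals of the shared and the unshared distal peaks overlap. Ribosomal protein pseudogenes marked with -ps were assigned 12 sites, 7 of them to Rpl31-ps7, and genes or pseudogenes of the Vmn pheromone receptor families 5. A promoter peak of the same gene was listed for 4.62% (2.41 to 7.92) of the control members and 2.27% (0.916 to 4.61) of distal intergenic peaks in control only. In COH the order was the other way round, with 2.28% (0.842 to 4.9) of the members and 2.58% (0.842 to 5.91) of distal intergenic peaks in COH only. The intervals overlap in both libraries. Of the 233 genes, 8 had a promoter peak in control, 4 in COH and 3 in both. Cct8, a subunit of a cytosolic chaperonin, and Ythdf3, which reads methylated adenosine in RNA, had theirs in control, and the chromatin remodeller Chd4 had one in COH.

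Genes of the lists for retinal or neuronal function had a shared distal site about as often as protein-coding genes in general. Of 247 genes in lists for activity-regulated, circadian, neurotrophin and axon growth, retinal transcription factor, Rac and actin, and retinal cell type marker genes, 1 had a shared distal site. Among 21900 protein-coding genes, 80 (0.365%) had such a site. The gene was Bdnf, which encodes a neurotrophin that supports retinal ganglion cells. Its site on chromosome 2 (109465873 to 109466172 in control), 38873 bp upstream, had pileups of 14 and 19, folds of 5.94 and 6.85, and a -log10 q of 6.12 and 9.24. None of the 26 activity-regulated, 23 circadian, 40 retinal transcription factor and 54 Rac and actin genes had one, nor did any cell type marker, rod markers included. At a background share of 0.365%, lists this short would mostly hold none, so these zeros say nothing particular about the lists. A few other neuronal genes, chosen after their values were seen, had weak or moderate sites. Glra2, a glycine receptor subunit, had a site 139098 bp upstream, with pileups of 27 and 23. The dopamine receptor gene Drd2 had a site with a pileup of 13 in both libraries, and Tac1, which encodes substance P, had a site with a pileup of 14 in both. A site 400683 bp from the TSS of the serotonin receptor gene Htr7 had pileups of 35 and 28.

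At the edge of the overlap rule, the smallest overlap among members was 37 bp, near the pseudogene Gm18127, with pileups of 12 and 10. The next was 111 bp, near Dcbld2, with a pileup of 12 in both. Just outside it, a COH peak near AY761185 lay 282 bp from a control promoter peak, with a pileup of 16 against 21. A COH peak near Asmt lay 344 bp from a control peak, with a pileup of 59 against 31.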

How the data were processed

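Per the labels' protocols, nuclei of the retina were processed with an antibody to Rac1 and the libraries amplified over 15 PCR cycles. The submitters' processing notes name cutadapt 1.9.1, Bowtie2 and mm9, with no role or order; the caller of the peaks, its settings and how duplicates were handled were not given in the sources used here. There is a list for each library, and calling was taken to have been separate. The signal (pileup), the fold enrichment ratio and the values of -log10 p and of -log10 q are those deposited by the authors; the headings of the last pair held a spreadsheet error and were read from their place and values. Positions, distances and annotation classes are other values given per the file headers. The number of reads is unknown.

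Overlaps needed 1 bp. Overlapping peaks were joined into sites (networkx 3.6.1), the highest pileup per library was taken, and the ratio was log2((COH + 1) / (control + 1)). Shares have exact Clopper-Pearson intervals (scipy 1.17.1). Gene kinds came from a RefSeq table of GRCm38.p6 by symbol or unique synonym. Overlap and ratio steps were tested on simulated data. The members, lists and limits were chosen with earlier results of these data known. Sites were named by rule: mitochondrial peaks; the 10 highest pileups; among sites up to 100 the 10 highest folds per library and the 5 highest and lowest ratios; the 5 genes with the most members; members of the gene lists; and the extremes of distance and overlap. Any other site was chosen for naming once its values were known.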

Additional observations from a re-analysis of the deposited data

How the results depend on the processing

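No paired analysis was possible because each group has 1 library. The counts of members stayed within 1.5 times the reported ones under 8 alternatives each: 219 to 263 in control and 222 to 269 in COH, for a reciprocal overlap of 50%, peaks within 1000 bp, a distal intergenic partner, a -log10 q of at least 5, removal of peaks above 100 or of clustered peaks, chromosomes 1 to 19 and X, and equal numbers of the strongest peaks. The shares moved more: with equal numbers the control share went from 45.7% to 59.7% and the COH share from 57.5% to 48.6%, so that their order turned. The median log2 pileup ratio of -0.12 became -0.0726 with fold enrichment in place of pileup. It became 0.10 when the median of all overlapping sites was taken off, which turns its direction. Under the other 5 alternatives it lay between -0.14 and -0.12. The count of sites past 2-fold was 1, near Gm20281, and became 0 with a -log10 q of at least 5, since its control peak has a -log10 q of 3.74; it stayed 1 under the other 6. The number of reads behind a pileup is unknown, so no counting interval of a single ratio is given. Both lists hold only peaks past a threshold, so a site missing from a list is not shown to be unbound.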

Other observations

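Shared distal sites were found on 21 chromosomes, with 31 on chromosome 6, 28 on X, 19 on chromosome 2 and 3 on chromosome 11. The control list held 173, 83, 212 and 190 peaks of all classes on these chromosomes, and 7 on Y, so the counts do not rank the chromosomes by share. Chromosome 6 keeps 19 outside the cluster next to Ezh2. Chromosome Y held 4. Among them was its first peak, 436480 bp from the TSS of Gm2098, with pileups of 27 in control and 34 in COH. Another was its last COH peak, near Mid1-ps1, with 30 and 29. Moderate sites were also the first peak of chromosomes 3, 6, 13 and 18 in both lists, near Gm8775, Gm2651, Gm16505 and Gm50072. Their control pileups of 30, 49, 27 and 19 and COH pileups of 21, 35, 18 and 25 were far below those of the sites that were last on chromosomes 7, 9, 12, 14 and 18. Near St8sia4, which encodes a polysialic acid synthase, a control and a COH peak of pileup 9 each lay 508 bp apart and were not counted as shared.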
